A study of Rattus norvegicus with 12 samples.

Results

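The circadian clock genes whose transcripts peak together with Dbp were followed in the central amygdala (CeA) of alcohol-dependent and control rats. Their list was set with earlier results of these data known. It held 10 genes, chosen by name for their known phase and control through E-boxes: Dbp, Tef, Hlf, Nr1d1, Nr1d2, Per1, Per2, Per3, Ciart and Bhlhe41. Of these, 9 had a row among the 37209 genes of the count table and all 9 entered the test of 20944 genes, whereas Hlf was not analysed here. The samples were CeA tissue of 12 wild type male Sprague Dawley rats aged 14 to 16 weeks, 6 in each of the 2 groups. CIE rats had inhaled ethanol vapor in daily cycles for weeks (chronic intermittent ethanol, a model of alcohol dependence) and Control rats had breathed air. All rats were killed under isoflurane at the end of the final exposure, so the CIE group was still intoxicated, and 1 hemisphere gave the tissue punch. The clock time at which each rat was killed was not given in the sources used here. With 1 time point, a shift in the phase of a rhythm and a change in its level cannot be told apart, and in a tissue punch neither can more cells of a type and more RNA per cell. Rats were housed in shared cages, so they were separate animals but not fully separate environments.

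The mammalian clock is a transcriptional loop in which CLOCK, or its relative NPAS2, pairs with ARNTL (BMAL1) and activates genes through E-box elements. The products of the Per and Cry genes then repress that pair, while the nuclear receptors REV-ERB alpha (Nr1d1) and REV-ERB beta (Nr1d2) repress Arntl itself, which therefore peaks roughly opposite to its targets. Dbp, Tef and Hlf encode PAR bZIP factors, which activate genes through D-box elements, and Nfil3 encodes the repressor of the same elements. Clocks outside the suprachiasmatic nucleus, those of the CeA among them, follow both that nucleus and circulating glucocorticoids, and Per1 is a direct glucocorticoid target.

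The promoters are shown because the listed genes are grouped by a shared mode of control. RefSeq promoter windows (rat build GRCr8, 250 bases before to 50 bases after the annotated start) matched 9 of the listed genes in 10 windows, Nr1d1 having 2. They were searched on both strands for the E-box CACGTG, the E-box-like element CACGTT, the D-box TTATGTAA or TTACGTAA and the cyclic AMP response element TGACGTCA, none of which overlapped another match in these windows. Windows are written 5′ to 3′ along the gene, with the matches in capitals. The Ciart window at chr2:186112197-186112496 on the minus strand held 3 E-boxes, which began 93, 35 and 21 bases before the start:
Ciart: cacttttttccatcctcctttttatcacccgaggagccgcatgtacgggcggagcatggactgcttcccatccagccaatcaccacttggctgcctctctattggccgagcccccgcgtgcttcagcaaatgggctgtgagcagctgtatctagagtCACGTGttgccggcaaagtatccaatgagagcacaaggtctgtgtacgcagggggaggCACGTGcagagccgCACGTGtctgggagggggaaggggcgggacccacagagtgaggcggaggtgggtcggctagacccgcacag
The Per2 window at chr9:99496944-99497243 on the minus strand held a D-box that began 192 bases before the start and, 62 bases before it, an E-box-like element:
Per2: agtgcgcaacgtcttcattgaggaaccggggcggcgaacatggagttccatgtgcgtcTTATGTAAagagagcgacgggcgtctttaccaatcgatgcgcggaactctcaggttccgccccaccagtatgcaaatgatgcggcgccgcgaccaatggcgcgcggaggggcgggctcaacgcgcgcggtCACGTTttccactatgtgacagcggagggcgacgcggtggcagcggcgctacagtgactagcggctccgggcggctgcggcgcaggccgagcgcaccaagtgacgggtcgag
Stretches around the single matches follow for Bhlhe41 (chr4:180569373-180569428 on the minus strand), Tef (chr7:115206604-115206659 on the plus strand) and both windows of Nr1d1 (chr10:84231956-84232011 on the minus strand, and chr10:84229615-84229670 on the minus strand), with E-boxes in the first, second and last and an E-box-like element in the other:
Bhlhe41: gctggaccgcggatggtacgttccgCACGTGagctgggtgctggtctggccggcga
Tef: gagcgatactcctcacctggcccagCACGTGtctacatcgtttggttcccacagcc
Nr1d1, window 1: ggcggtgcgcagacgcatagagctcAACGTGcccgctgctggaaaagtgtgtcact
Nr1d1, window 2: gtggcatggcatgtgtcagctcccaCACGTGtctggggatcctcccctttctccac
An E-box was present in 4 of the 10 windows and in 6.42% of all 33469 promoters of the table, and 3 or more E-boxes were present in 0.0568% of them. Because the genes were listed for control through E-boxes, a higher share in their windows follows from the choice and is not a result. The E-box-like element was in 4.83% of all promoters, the D-box in 1.01%, and the cyclic AMP response element in 1.83% of them and in 0 of the 10 windows. In the windows of Dbp, Per1, Per3 and Nr1d2 none of these elements occurred, which says only that the letters are not in those windows. Such a match is a string of letters, not a measured binding site. Of the genes with an E-box, Ciart rose in CIE at a nominal p below 0.05 in the test reported below, whereas Bhlhe41, Tef and Nr1d1 did not. Dbp, Per1, Per3 and Nr1d2 rose at that threshold with none of these elements in their windows. The relation of the matches to the group differences was not tested.

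Library totals ranged from 39082548 to 95647601 counts, and the fewest counts of any member in a rat were the 324 of Ciart in Control rat 11. Levels are given as CPM, the counts of a gene scaled to library size after TMM normalization, which compare 1 gene between rats but not 1 gene with another. The CeA markers Prkcd, Sst, Crh, Nts, Calcrl, Gad1, Gad2 and Slc32a1 were present in every rat, with sums of 1473 to 2020 CPM in CIE rats and 1686 to 2003 CPM in Control rats. Of these 8, Crh (log2 fold change of -0.45) and Nts (-0.46) were lower in CIE at a nominal p below 0.05, and 7 of 8 had a negative difference, with a median of -0.15. Of all 20944 genes tested, 903 were lower and 837 higher in CIE at that threshold, which is the background for the marker counts below. A pair of libraries stood apart in 6 markers of striatal neurons (Drd1, Adora2a and Ppp1r1b among them). The summed striatal level was 3280 CPM in CIE rat 2 and 3652 CPM in Control rat 10, against medians of 625 and 483 CPM in their groups. The rat with the highest level was counted for the 9 listed clock genes but not over all genes. In the CIE group, 6 of the 9 were highest in rat 2, and in the Control group 7 of 9 were highest in rat 10. Results are therefore also given with the striatal markers as a covariate and without this pair of rats, both chosen after the data had been seen. Summed oligodendrocyte markers ranged from 5718 to 13866 CPM in CIE rats and from 8759 to 16399 CPM in Control rats, and 9 of 10 of these markers were lower in CIE at a nominal p below 0.05. Cortical markers (Slc17a7 and Neurod2 among them) summed to a median of 131 CPM in CIE rats, with a range of 8.72 to 402, against 16.0 CPM in Control rats, with a range of 10.3 to 151. All 5 had a positive difference, with a median log2 value of 1.90, and Neurod2 passed the nominal threshold. Endothelial markers summed to 172 to 229 CPM in CIE rats and 195 to 241 CPM in Control rats, and 4 of 6 were lower in CIE at the nominal threshold. The part of CeA and endothelial markers in the results that follow was not tested.

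All 9 measured genes had higher mean levels in the CIE group. The median log2 fold change of the 9 was 0.475, against 0.001 over all genes tested. By the edgeR quasi-likelihood test, 6 of the 9 rose at a nominal p below 0.05 (Ciart, Nr1d2, Per1, Per2, Per3 and Dbp), where 4.0% of all genes did. At a false discovery rate (FDR) of 5% over all genes, 1 of the 9 rose, Ciart, where 0.105% of all genes did. The groups did not overlap in 2 of the 9, Ciart and Nr1d2, where 0.339% of all genes had every CIE rat above every Control rat. Tef, Nr1d1 and Bhlhe41 did not pass either threshold. Because the genes were listed with earlier results of these data known, these counts and the median are not independent of that choice.

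**Figure D1:**
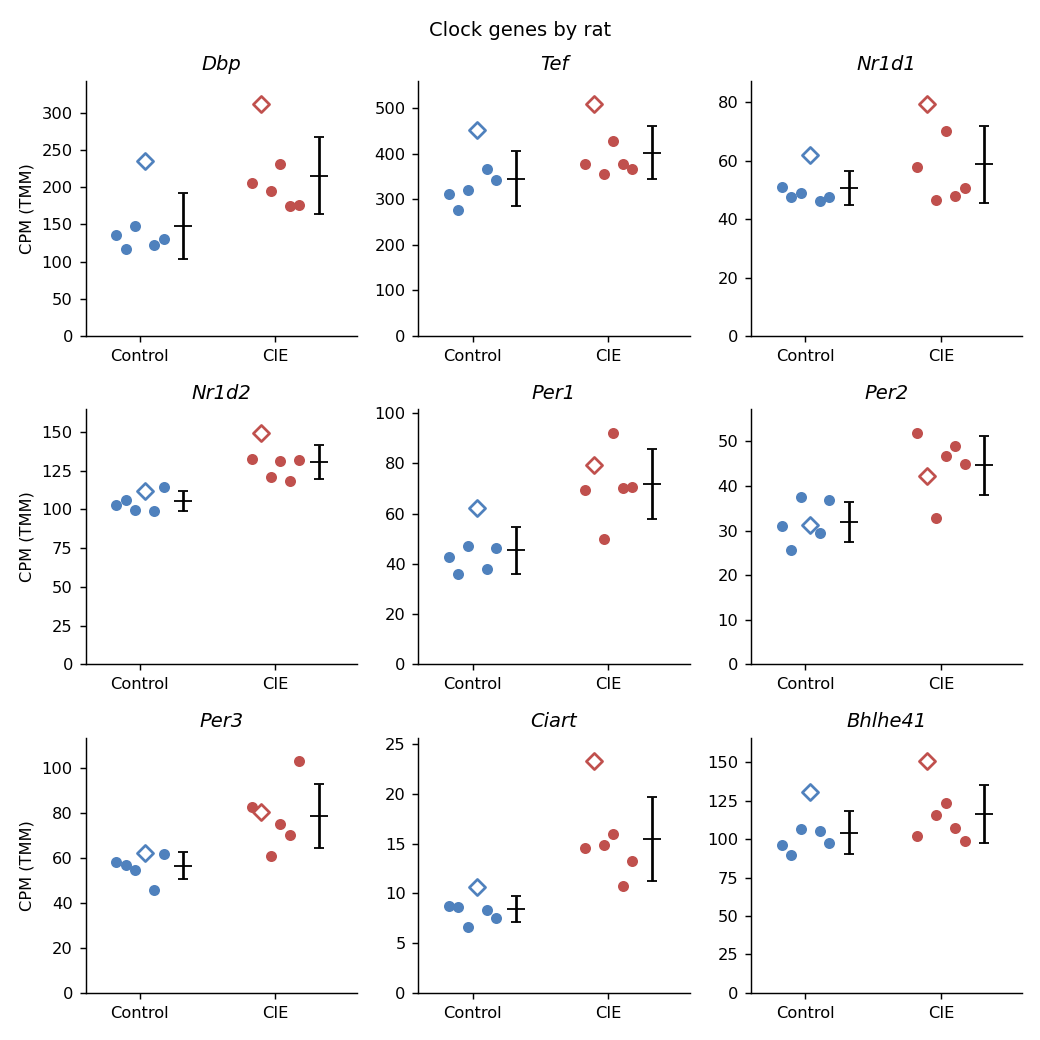
CPM (vertical axes, from 0) of the 9 measured genes in each rat of the Control and CIE groups, with the mean ± SD of each group beside the points. Open diamonds are Control rat 10 and CIE rat 2, whose striatal markers were high. Ciart and Nr1d2 are the genes whose CIE points all lie above the Control points.

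Of the PAR bZIP factors, Dbp, the founding member of the family and a direct E-box target, ranged from 174 CPM through a median of 200.0 to 311 CPM in the CIE group. In the Control group it ranged from 117 through 133 to 235 CPM. The groups overlapped through a single Control rat, rat 10, while the other 5 Control rats stayed at or below 148 CPM. The means were 216 ± 51.4 CPM and 148 ± 44.0 CPM (SD, n = 6 each). The log2 fold change was 0.54 with an SE of 0.18, and the edgeR test gave a nominal p of 0.00918 and an FDR of 0.362. Without Control rat 10 the Dbp difference was 0.73 with an FDR of 0.0352. Of the 12 fits that left out 1 rat, this 1 passed 5% FDR for Dbp. The Dbp FDR reached 0.642 in these fits, without Control rat 11. Tef, thyrotroph embryonic factor, ranged from 355 through 377 to 509 CPM in CIE rats and from 276 through 331 to 452 CPM in Control rats. Its log2 difference was 0.22 (SE 0.12), with an edgeR nominal p of 0.0810 and an FDR of 0.667. Control rat 10 carried the top of the Tef range in the Control group, and without it Tef passed the nominal threshold with a difference of 0.32 and an FDR of 0.244.

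The REV-ERB pair differed in how cleanly the groups separated. Nr1d2 ranged from 118 through 132 to 149 CPM in CIE rats and from 98.8 through 104 to 114 CPM in Control rats, with no overlap. The narrow spread between rats went with a modest size, means of 131 ± 11.1 and 106 ± 6.30 CPM (SD, n = 6 each). Its log2 fold change was 0.31 (SE 0.07) at an edgeR nominal p of 3.93e-04 and an FDR of 0.0765. Nr1d1 ranged from 46.7 through 54.4 to 79.4 CPM in CIE rats and from 46.1 through 48.4 to 62.0 CPM in Control rats. In 3 of the CIE rats Nr1d1 lay within the range of the Control rats other than rat 10. The log2 difference was 0.22 (SE 0.13), the edgeR nominal p 0.115 and the FDR 0.712, and Nr1d1 passed the nominal threshold without CIE rat 3 or Control rat 10. Nr1d1 overlaps Thra, the thyroid hormone receptor alpha gene, in GRCr8, and since the strand setting of the counting was not given, reads from their shared stretch cannot be told apart.

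The Period genes, which encode the repressors that pair with the cryptochromes, all rose at the nominal threshold. Per1, the family member with the best known acute induction by glucocorticoids and neuronal activity, ranged from 49.9 through 70.2 to 92.2 CPM in CIE rats and from 35.9 through 44.5 to 62.0 CPM in Control rats. All CIE rats other than rat 3 were above every Control rat. The means were 71.8 ± 13.9 and 45.4 ± 9.30 CPM (SD, n = 6 each), a log2 fold change of 0.66 (SE 0.15) with an edgeR nominal p of 4.78e-04 and an FDR of 0.0863. Leaving out CIE rat 3 brought the Per1 FDR to 0.0254, and leaving out Control rat 10 brought it to 0.0251. Of the 12 fits that left out 1 rat, these 2 passed 5% FDR for Per1. Its FDR reached 0.226 without Control rat 11. Per2 ranged from 32.9 through 45.9 to 51.9 CPM in CIE rats and from 25.7 through 31.2 to 37.6 CPM in Control rats. CIE rat 3 again was the single CIE rat within the Control range. The log2 fold change of Per2 was 0.48 (SE 0.11), with an edgeR nominal p of 8.36e-04 and an FDR of 0.121, or 0.0255 without CIE rat 3. Per2 passed 5% FDR in 1 of the 12 fits that left out 1 rat, and its FDR reached 0.300 without Control rat 11. Per2 shares a stretch with the lncRNA LOC134480412 in GRCr8, with the same limit on strand as for Nr1d1. Per3 ranged from 60.7 through 77.9 to 103 CPM in CIE rats and from 45.7 through 57.6 to 62.5 CPM in Control rats, and CIE rat 3 was once more the 1 that overlapped. Its log2 fold change was 0.47 (SE 0.11), with an edgeR nominal p of 9.00e-04 and an FDR of 0.124, or 0.0421 without CIE rat 3. Per3 passed 5% FDR in 1 of the 12 fits that left out 1 rat, and its FDR reached 0.285 without Control rat 9. Without CIE rat 3, groups did not overlap in 5 of the 9 genes, the 3 Period genes in addition to Ciart and Nr1d2. In that comparison, 0.874% of all genes were higher in CIE without overlap.

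The remaining members are repressors of the CLOCK and ARNTL pair. Ciart (CHRONO) ranged from 10.7 through 14.7 to 23.3 CPM in CIE rats and from 6.62 through 8.51 to 10.6 CPM in Control rats. The groups met closely, at 10.7 CPM in CIE rat 5 and 10.6 CPM in Control rat 10, but did not overlap. The means of 15.4 ± 4.24 and 8.42 ± 1.33 CPM (SD, n = 6 each) were in a ratio of 1.83. The log2 fold change was 0.87 (SE 0.16), with an edgeR nominal p of 1.05e-04 and an FDR of 0.0356, rank 61 of all genes by p. That call was close to the threshold. It held in 5 of the 12 fits that left out 1 rat, and the Ciart FDR was 0.0768 without CIE rat 1, 0.0903 without CIE rat 4, and 0.0776, 0.0752, 0.111, 0.102 and 0.0883 without Control rats 7, 8, 9, 11 and 12. The size stayed between 0.81 and 0.89 in those 7 fits. Bhlhe41 (DEC2), a basic helix-loop-helix repressor that competes for E-boxes, ranged from 98.8 through 111 to 151 CPM in CIE rats and from 89.7 through 101 to 131 CPM in Control rats. Its log2 difference was 0.16 (SE 0.11), with an edgeR nominal p of 0.178 and an FDR of 0.776, and it passed the nominal threshold without Control rat 10.

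Other tests placed more of these genes past the FDR threshold. With DESeq2, the tool of the study, 5 of the 9 passed 5% FDR, where 0.495% of all genes rose: Ciart at 5.3e-05, Nr1d2 at 0.00146, Per1 at 0.00206, Per3 at 0.0113 and Per2 at 0.0118. With the striatal marker score as a covariate in edgeR, 3 passed, where 0.153% of all genes rose. They were Dbp, with a log2 fold change of 0.42 (SE 0.06) and an FDR of 0.00401, Ciart with 0.76 (SE 0.13) and 0.0139, and Per1 with 0.59 (SE 0.10) and 0.0188. With the cortical and striatal scores together, 3 passed, where 0.105% of all genes rose: Dbp (0.40, FDR 0.0100), Ciart (0.71, FDR 0.0311) and Per1 (0.54, FDR 0.0467). Without CIE rat 2 and Control rat 10, 2 of the 9 passed, where 0.0712% of all genes rose: Dbp, at 0.59 (SE 0.09), and Ciart, at 0.80 (SE 0.12), both with an edgeR FDR of 0.0272. With the oligodendrocyte marker score as a covariate, 0 of the 9 passed 5% FDR in edgeR, while 5 rose at a nominal p below 0.05, where 5.40% of all genes did, and the Ciart difference was 0.87 with an FDR of 0.212. Oligodendrocyte markers moved with group, and their part in the differences was not tested beyond that fit. No fit turned the direction of any of the 9.

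**Figure D2:**
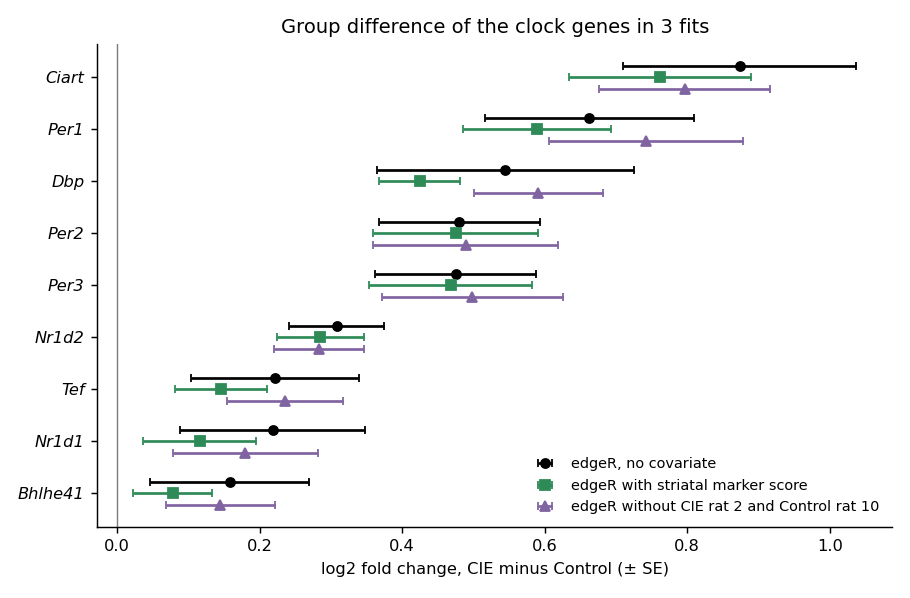
Log2 fold change (CIE minus Control, horizontal axis) of the 9 genes with its SE, in the edgeR fit without covariates (circles), with the striatal marker score as covariate (squares) and without CIE rat 2 and Control rat 10 (triangles). All values are above 0, and Ciart has the largest in each fit, 0.87, 0.76 and 0.80.

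Arntl, whose transcript peaks opposite to Dbp, gave a second view of the clock within each library. Its level was 30.9 ± 4.26 CPM in CIE rats and 33.0 ± 5.30 CPM in Control rats (SD, n = 6 each), a log2 difference of -0.10 with an edgeR nominal p of 0.409 and an FDR of 0.876. The log2 ratio of Dbp to Arntl does not depend on how libraries were scaled. It was 2.78 ± 0.28 in CIE rats and 2.13 ± 0.23 in Control rats (SD, n = 6 each), and all 6 CIE rats were above all 6 Control rats. The margin was small, with 2.55 in CIE rat 5 and 2.54 in Control rat 10. The difference of 0.65 had a p of 0.00216 in a two-sided exact permutation test, the smallest that 6 against 6 rats allow. Without CIE rat 2 and Control rat 10 the difference was 0.63, with an exact p of 0.00794, again the smallest possible.

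Other clock genes did not move as a block. Of all 20944 genes, 837 rose and 903 fell at a nominal p below 0.05. Among activators and genes of the opposite phase, 0 of 7 tested rose and 1 fell at that threshold, with a median log2 difference of 0.10. The gene that fell was Nfil3, the repressor of D-box elements, from 8.92 ± 1.34 CPM in the Control group to 6.35 ± 1.12 CPM in the CIE group (SD, n = 6 each), a log2 fold change of -0.49 (SE 0.13) with an edgeR nominal p of 0.00200 and an FDR of 0.181. Clock had a log2 difference of 0.02 (edgeR nominal p of 0.709) and Cry1, the late-phase cryptochrome, one of 0.10 (nominal p of 0.338). Among other repressors, kinases and ubiquitin ligases, 1 of 8 rose at the nominal threshold, Cry2, by 0.22 on the log2 scale (edgeR FDR 0.566), and the median was 0.005. Of clock-controlled output genes, 2 of 8 rose at the nominal threshold and 0 fell, with a median of 0.162. Pdk4, an inhibitor of pyruvate dehydrogenase that glucocorticoids and fasting also induce, rose by 1.57 (SE 0.32) at an edgeR FDR of 0.0597. Wee1, a kinase that restrains mitotic entry, rose by 0.25 at an FDR of 0.573.

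**Figure D3:**
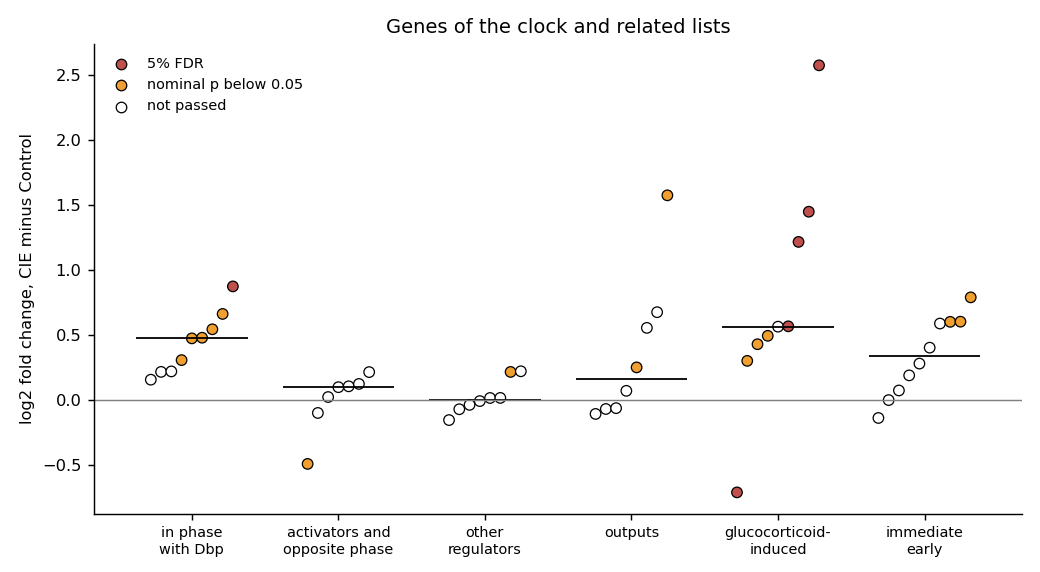
Log2 fold change (CIE minus Control, vertical axis) of each tested gene, by list, with the median of the list as a line. Filled red points passed 5% FDR, orange points passed only a nominal p below 0.05 and open points passed neither; all 9 genes in phase with Dbp lie above 0 with a median of 0.475, and the other clock lists have medians of 0.10, 0.005 and 0.162.

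Glucocorticoid-induced genes and immediate early genes were examined because both kinds of signal act on the Period genes. Of 9 glucocorticoid-induced genes tested, 7 rose and 1 fell at a nominal p below 0.05, and 4 rose and 1 fell at 5% FDR, with a median log2 difference of 0.565. Of all 20944 genes, 837 rose and 903 fell at the nominal threshold, and 22 rose and 54 fell at 5% FDR. The list was chosen with earlier results of these data known, so its counts and median are not independent of that choice. Hif3a, a hypoxia-inducible factor subunit, rose by 2.57 (SE 0.30, edgeR FDR 0.00331), Zbtb16 by 1.45 (FDR 0.0102) and Tsc22d3, which encodes GILZ, by 0.57 (FDR 0.0159), whereas Cdkn1a, the cell cycle inhibitor p21, had a log2 fold change of -0.71 (FDR 0.0116). Of 10 immediate early genes, 3 rose and 0 fell at the nominal threshold and 0 passed 5% FDR, with a median of 0.342. These were Dusp1 (log2 fold change of 0.79, edgeR FDR 0.124), Junb (0.60, FDR 0.318) and Fosb (0.60, FDR 0.577), while Fos had a difference of 0.00. The part of either signal in the differences of Per1 and Per2 was not tested.

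Variation with Dbp from rat to rat within groups was examined next. After removal of the group means, 5 of the other 8 genes were positively associated with Dbp at an FDR of 5% in edgeR, where 7.93% of all genes were: Bhlhe41 (FDR 9.97e-04), Nr1d1 (0.0021), Tef (0.00313), Ciart (0.0209) and Per1 (0.028). Of 11 relations with Dbp that were computed across the 12 rats, that of Bhlhe41 had a Pearson's r of 0.91 (permutation p 0.00117) and a Spearman's rho of 0.76 (permutation p 0.00889). For Nr1d1, r was 0.86 (permutation p 3.5e-04) and rho 0.79 (permutation p 0.00385). For Per2, r was 0.08 (permutation p 0.818) and rho 0.20 (permutation p 0.550), and for Per3, r was 0.20 (permutation p 0.527) and rho 0.22 (permutation p 0.514). For Nr1d2, the relation had an r of 0.62 (permutation p 0.0371), a rho of 0.48 (permutation p 0.130) and an edgeR FDR of 0.205.

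These relations leaned on the pair with high striatal markers, CIE rat 2 and Control rat 10, whose Dbp residuals lay farthest from the median. Without them, r was 0.75 for Nr1d1, 0.65 for Bhlhe41, 0.58 for Per1, 0.39 for Tef and Per2, 0.23 for Ciart, 0.16 for Nr1d2 and -0.06 for Per3. In edgeR, 0 of 8 passed 5% FDR, where 0.826% of all genes were positively associated. Nr1d1 (edgeR nominal p 0.00833, FDR 0.206) and Per1 (nominal p 0.0344, FDR 0.39) were below a nominal p of 0.05. The share of all genes below that p was not counted, so no excess is read from them. Without Control rat 10 alone, 2 of 8 passed 5% FDR, where 2.71% of all genes did. Arntl, the gene of the opposite phase, varied with Dbp in the same direction between rats of a group, with an r of 0.67 (permutation p 0.027, rho 0.83 with permutation p 0.00297) and, without the same pair of rats, an r of 0.83. Its edgeR FDR was 0.0711.

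**Figure D4:**
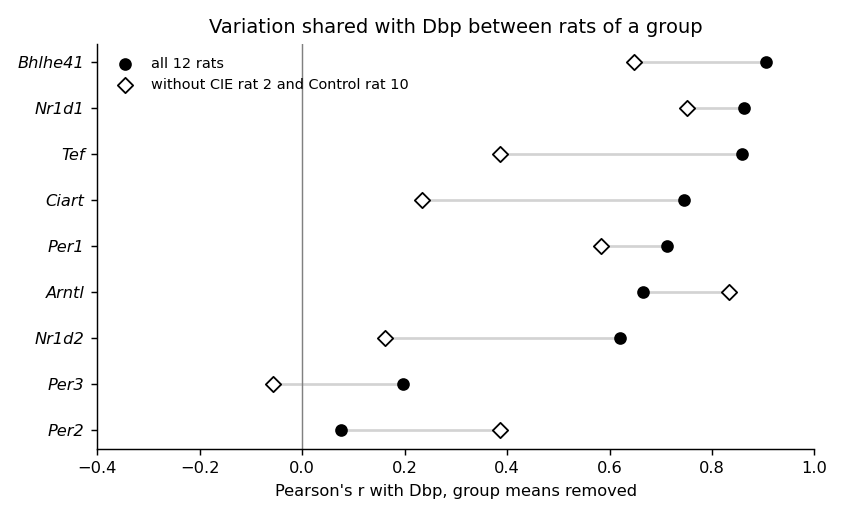
Pearson's r with Dbp (horizontal axis) of the other 8 genes and Arntl over all 12 rats (filled circles) and without CIE rat 2 and Control rat 10 (open diamonds), group means removed. Values for Tef, Ciart and Nr1d2 drop to 0.39, 0.23 and 0.16 when these rats are left out, whereas those for Nr1d1 and Arntl stay at 0.75 and 0.83.

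The level of Dbp followed that of the striatal markers. The striatal score, the mean of standardised log2 CPM over the 6 markers, had an r of 0.97 with Dbp within groups (permutation p 6e-05, rho 0.89 with permutation p 7.4e-04), and 0.87 without CIE rat 2 and Control rat 10. The score of 5 cortical markers had an r of 0.59 (permutation p 0.0397, rho 0.52 with permutation p 0.101), and 0.26 without them. In edgeR, 6 of the 9 genes were positively associated with the striatal score at 5% FDR, where 7.84% of all genes were: Dbp (3.4e-06), Bhlhe41 (4.39e-04), Tef (0.00126), Nr1d1 (0.00325), Per1 (0.019) and Ciart (0.0405). Nr1d2 (0.365), Per3 (0.896) and Per2 (0.929) were not past the threshold. The 5 genes most like Dbp over the 12 rats were Kcnab1, Ptpn5, Neu2, Erlin1 and Atp2b1, with r of 0.99 each, and these had r of 0.97 to 0.99 with the striatal score. The 5 at the other end were Ckap4, Ccdc184, LOC102546820, Tmem255a and Efr3a, with r of -0.99 to -0.97. By the same measure Bhlhe41, the nearest of the other 8 genes in phase with Dbp, stood at rank 406 of 15322 genes. In CIE rat 2 and Control rat 10, which had the highest striatal sums, Per2 was 42.3 and 31.3 CPM, near the medians of 45.9 and 31.2 CPM in their groups. Of the 6 striatal markers, 0 differed between CIE and Control at a nominal p below 0.05 in edgeR, and their median log2 difference was 0.235.

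**Figure D5:**
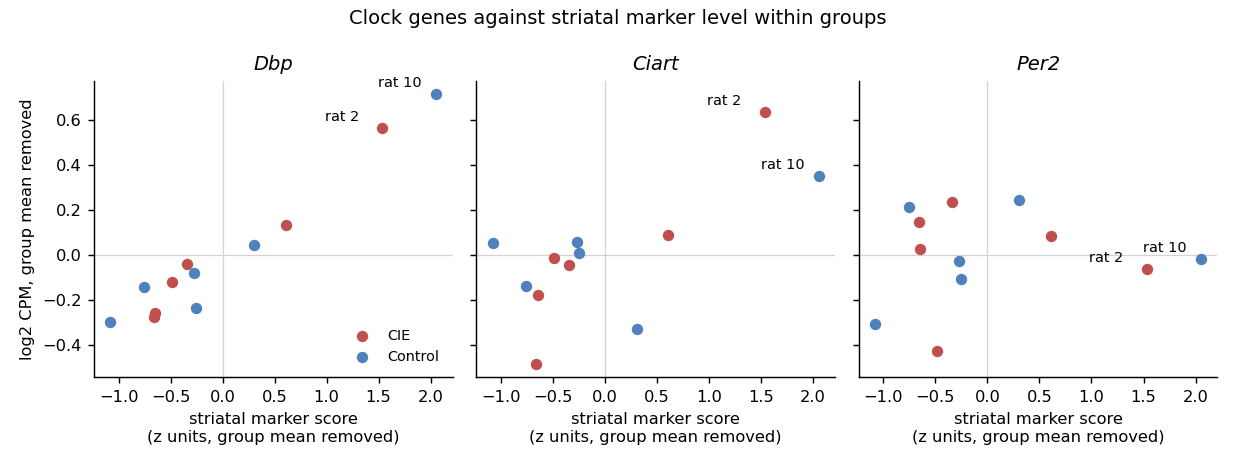
Log2 CPM of Dbp, Ciart and Per2 (vertical axis) against the striatal marker score (horizontal axis, mean of standardised log2 CPM), both with group means removed, in 6 CIE (red) and 6 Control rats (blue). Dbp rises along the whole range of the score (r of 0.97), Ciart mainly through rats 2 and 10, and Per2 shows no such trend (r of 0.10).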

How the data were processed

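RNA-Seq libraries of poly-A RNA from 6 CIE and 6 Control rats were analysed from the table of raw counts per gene that the authors deposited. Per the submitters' processing notes and the study's methods, reads were mapped to Rnor_6.0, counted with HTSeq and tested with DESeq2 1.26. The annotation and the strand setting of the counting were not given in the sources used here. Counts were used as deposited, and no column lacked a sample. Groups and rat numbers came from the sample titles, and the numbers did not pair rats. In the same group, any pair of libraries varied from 17.5 to 215 times as much as Poisson counting allows, so no library was a copy of another. Totals of 39082548 to 95647601 counts set the precision of each value.

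Genes were filtered by filterByExpr and scaled by TMM, and CIE was compared with Control by the quasi-likelihood F test of edgeR 4.0.16 (R 4.3.3), with Benjamini-Hochberg adjustment over all genes tested. CPM are on the TMM scale, and log2 CPM had a prior count of 2. Associations with Dbp and with marker scores were fitted in edgeR with group in the design. Permutation p values of correlations came from 100000 permutations of rats within groups, two-sided, and the ratio test enumerated all 924 divisions of the rats. Pearson's r was ranked over genes with a mean log2 CPM above 1. Alternatives were DESeq2 1.42.0, limma 3.58.1 voom with sample weights, other scalings and filters, marker scores as covariates and each rat left out in turn. The scripts were tested on simulated data.

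The members and all lists were chosen with earlier results of these data known. Named were all members, from each other list the genes at a nominal p below 0.05 (at most 4, by smallest p), Arntl, Clock, Cry1 and Nfil3 in any case, and the 5 genes at each end of r with Dbp. Fos was named after its value was seen. Listed genes under no row of that name (Hlf, Fbxl21, Mt1 and Tac2) were not analysed here, and some listed genes are not reported here by name.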

Additional observations from a re-analysis of the deposited data

Results flagged for a closer look

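Of 32 sets of 6 values examined for a lone rat (Dixon's ratio of the gap to the nearest rat over the range of the group), 7 had one, where chance alone marks about 1 in 20. Dbp in Control rat 10 (235 CPM) and Nr1d1 in Control rat 10 (62.0 CPM) lay above the other Control rats. The log2 ratio of Dbp to Arntl in CIE rat 2 (3.32) lay above the other CIE rats. The same rats had the lone sums of striatal markers, 3280 CPM in CIE rat 2 and 3652 CPM in Control rat 10, and Control rat 10 also that of cortical markers (151 CPM). The sum of astrocyte markers in CIE rat 6 (2079 CPM) was above those of the other CIE rats, and Per3 had its highest level, 103 CPM, in that rat.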

How the results depend on the processing

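All 9 genes kept a positive difference in each fit run. The number of the 9 at 5% FDR, 1 in the edgeR test as reported, was 1 with DESeq2's size factors in edgeR, without a filter and with at least 10 counts in every rat. It was 3 with library size alone, 5 with DESeq2, 6 with limma-voom, 0 with the oligodendrocyte score, 3 with the cortical and striatal scores, 3 with the striatal score alone and 2 without CIE rat 2 and Control rat 10. It ranged from 0 to 4 when single rats were left out. The cause of these shifts was not tested. Over all genes and in either direction, 76 passed 5% FDR with edgeR, 73 with library size alone, 274 with DESeq2 and 234 with limma-voom. The number was 26 with the oligodendrocyte score, 68 with the cortical and striatal scores and 93 with the striatal score alone. Without CIE rat 2 and Control rat 10 it was 38. Left-one-out fits gave 34 (Control rat 9) to 154 (CIE rat 6).

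The number of the 9 at a nominal p below 0.05 stayed between 5 and 9. It was 9 without Control rat 10, where 6.97% of all genes rose at that threshold, and 8 with limma-voom, where 8.56% did, against 4.0% in the edgeR test as reported. The number whose groups did not overlap ranged from 2 to 5 when single rats were left out and was 4 without CIE rat 2 and Control rat 10. The share of all genes higher in CIE without overlap was counted only with all rats (0.339%) and without CIE rat 3 (0.874%). With fewer rats, groups separate more easily, so these counts do not show a stronger separation. The number of 8 associated with Dbp, 5 as reported, ranged from 2 to 5 when single rats were left out and was 0 without that pair of rats. The Dbp to Arntl difference ranged from 0.544 to 0.732, with exact p at the smallest value each design allows. No paired analysis was possible because the groups share no rat numbers. Depth allowed 324 counts or more for each member in each rat, so the spread between rats, not counting error, limited the tests.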

Other observations

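Usp2, a clock-controlled deubiquitinase, and Fkbp5, a glucocorticoid-induced co-chaperone, also varied with Dbp between rats of a group. Both were picked after their values were seen. Usp2 had an r of 0.98 with Dbp (permutation p 1.4e-04, rho 0.84 with permutation p 0.00231) and an edgeR FDR of 2.47e-07. Fkbp5 had an r of 0.93 (permutation p 8e-05, rho 0.89 with permutation p 6.3e-04) and an edgeR FDR of 1.07e-04. Of all genes, 7.93% were positively associated with Dbp at 5% FDR, and by r Usp2 stood at rank 22 and Fkbp5 at rank 263 of 15322. Both genes were highest in CIE rat 2 and Control rat 10, the pair with high striatal markers. Their relation to the striatal score was not tested. Without CIE rat 2 and Control rat 10, r was 0.87 for Usp2 and 0.88 for Fkbp5. No test compared these correlations with those of the other genes. Between groups, Usp2 had a log2 difference of 0.68 (SE 0.38, edgeR nominal p 0.0971) and Fkbp5 one of 0.49 (SE 0.17, nominal p 0.0135, FDR 0.421). Pdk4 had an r of -0.43 with Dbp.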
